A study of Mus musculus with 6 samples.

Results

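Gamma-delta T cells are T lymphocytes whose antigen receptor is built from a gamma and a delta chain in place of the alpha and beta chains of most T cells. In mice they leave the thymus already committed to one of a pair of programs. Cells of the first make the cytokine interleukin 17 and carry receptors for interleukin 23 and interleukin 1. Cells of the second make interferon gamma, depend on Tbx21 and Eomes, and share granzymes and killer receptors with natural killer (NK) cells and CD8 T cells. In mouse tumours both kinds have been described, and the receptor chains they use differ between tissues.

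The cells described here were picked by a rule on their RNA counts, not by a stain for the receptor. A cell entered when it had at least 2 UMIs of Trdc, the constant part of the delta chain, and at least 2 UMIs of Cd3e, Cd3d and Cd3g together, the chains that carry every T cell receptor. It also had to hold no UMI of Cd4, Cd8a, Cd8b1, Foxp3 or Cd79a and fewer than 10 UMIs of C1qa, C1qb and C1qc, which are macrophage genes. A UMI (unique molecular identifier) stands for 1 captured transcript. The rule found 350 cells among 26843 kept cells of 5 libraries, which is 1.30%, and they are called gate cells below.

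The series profiled live CD45+ cells, that is cells of the blood-forming lineage, sorted from mouse mammary tumours, by droplet-based single-cell RNA sequencing. By the series' title the tumours model triple negative breast cancer, and the agents were an inhibitor of the receptor kinase MERTK and cyclophosphamide, an alkylating chemotherapy. Each library carries 1 treatment label, MRX, CTX, Combined, ctxd18t or combod18t, which the labels do not spell out, and a VC library was not analysed here. The protocol speaks of day 7 mice treated 3 hours before harvest and lists MRX, CTX, Combined and VC as 1 multiplexed run, while d18 stands in the label of the other two. Strain, age and the number of animals behind a library are not given in the sources used here.

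There was 1 library per label, so no difference between libraries has a replicate check and none was tested. Values in brackets are 95% intervals for the error of counting alone. They hold nothing of the variation from animal to animal. The libraries held 39820290 to 100733879 UMIs, and gate cells had a median of 6969 to 9051.5 UMIs. The barcode lists shared 34 barcodes between CTX and combod18t and 21 between Combined and ctxd18t. Of the 350 gate cells, 1 cell of ctxd18t had such a barcode.

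A library's gate cells made up 1.56% (1.25 to 1.93) of the kept cells in MRX, 85 of 5440. The other shares were 0.877% (0.694 to 1.09) in CTX, 78 of 8898, and 2.50% (2.06 to 3.00) in Combined, 112 of 4476. In ctxd18t the share was 0.474% (0.285 to 0.739), 19 of 4011, and in combod18t 1.39% (1.05 to 1.81), 56 of 4018. Combined stood highest and ctxd18t lowest, and in both pairs the library with the combined label held the larger share. The difference was 1.63 points (1.15 to 2.15) for Combined against CTX and 0.920 points (0.505 to 1.37) for combod18t against ctxd18t. Among cells with at least 2 Cd3 UMIs, MRX held 3.94% gate cells, CTX 2.93%, Combined 7.68%, ctxd18t 1.13% and combod18t 1.90%.

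Cells just at the threshold were common: 76 members held exactly 2 Trdc UMIs and 34 held exactly 2 Cd3 UMIs. A further 86 cells met every other condition with 1 Trdc UMI. When every cell was first thinned at random to 2000 UMIs, the difference between Combined and CTX was 0.465 points. The ranking then changed: combod18t was highest at 0.977% beside 0.752% in Combined, and CTX was lowest at 0.287% beside 0.341% in ctxd18t.

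The label was checked against genes that the rule did not use, and it held for one set of cells more than for the other. To sort the cells, the genes detected in each were counted from a list of 13 type 17 genes (such as Il17a, Il23r and Blk) and a list of 13 type 1 and cytotoxic genes (such as Tbx21, Eomes, Gzma and Nkg7). A cell with more genes of the first list leaned type 17, and a cell with more of the second leaned type 1. This is a range and not a cell type, but few cells lay near its middle: 8 of 350 were within 1 gene of the cut. Of the gate cells, 104 leaned type 17, 244 leaned type 1 and 2 did neither.

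**Figure D1:**
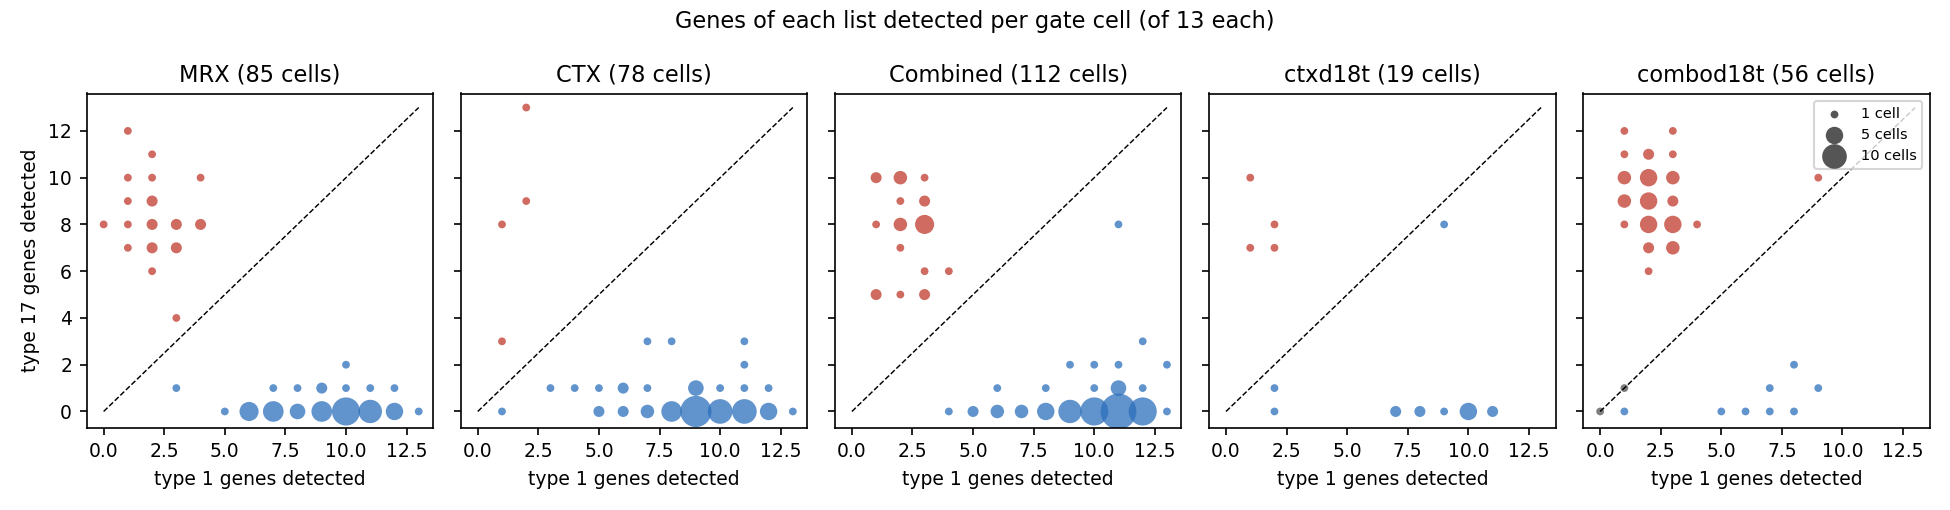
Each panel is a library and each point a set of gate cells with the same counts, with the number of type 1 genes detected on the x axis and of type 17 genes on the y axis, out of 13 each. Point area gives the number of cells, red marks cells that lean type 17, blue those that lean type 1, grey the 2 that lean neither way, and the dashed line marks equal numbers. Most cells lie in 2 separate groups, and the red cells number 23 for MRX, 4 for CTX, 27 for Combined, 4 for ctxd18t and 46 for combod18t.

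Transcripts of the gamma chain constant genes (Trgc1 to Trgc4), which the rule did not ask for, were found in 100 of the 104 cells that leaned type 17, 96.2% (90.4 to 98.9). They were found in 116 of the 244 that leaned type 1, 47.5% (41.1 to 54.0). Trgc1 to Trgc3 are near-identical copies, so counts of the single genes are uncertain. Of CD8 T cells picked by a like rule, 19.6% held Trgc2 and 5.91% Trgc4. Trac, the constant part of the alpha chain, was seen in 34.9% of all gate cells and in 57.1% of those of combod18t. The median depth of the 2 leaning sets was alike, 7955.5 and 8380 UMIs.

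Markers of NK cells ran the other way. Ncr1, which encodes the NK receptor NKp46, was seen in 2 type 17-leaning cells and in 143 type 1-leaning ones, 58.6%. Tyrobp, a signalling adaptor of NK and myeloid cells, was seen in 7.69% and 77.05% of the same sets. An NK gate (no Cd3 UMI, at least 2 UMIs of Ncr1 and Klrb1c) held 1435 cells, of which 796, or 55.5%, had a Trdc UMI too. In a B cell gate, which should lack the gene, 6 of 2450 cells had one, 0.245%. Type 1-leaning cells with no Trgc UMI, 128 in number, carried Ncr1 or Klrb1c in 82.8%. The 116 with a Trgc UMI carried one of these NK genes in 40.5%. The rule thus took in cells with NK genes as well, and gamma-delta T cells and NK cells cannot be told apart within the type 1-leaning set by this rule.

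**Figure D2:**
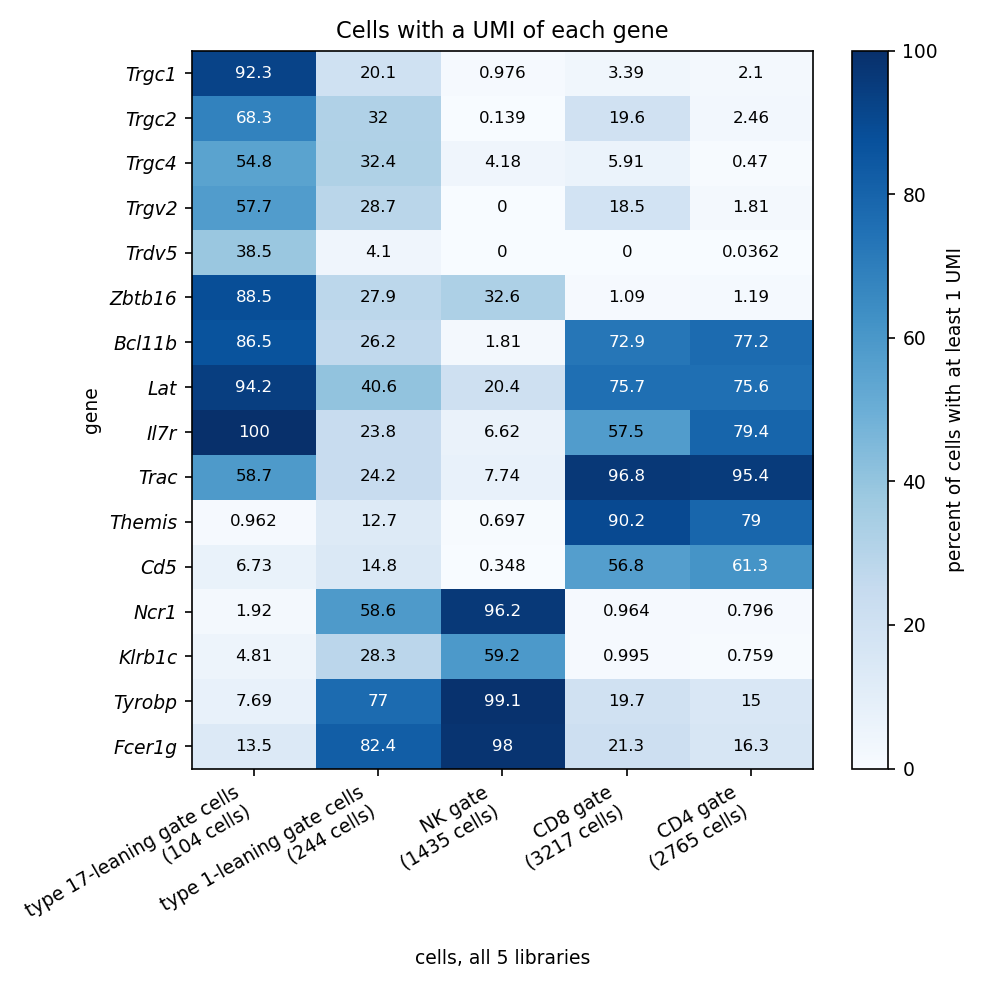
Rows are genes and columns are the 2 sets of gate cells and the NK, CD8 and CD4 gates over all 5 libraries, and each tile gives the percent of cells with at least 1 UMI. In the type 17-leaning column Trgc1 stands at 92.3%, Trgc2 at 68.3%, Trgc4 at 54.8% and Ncr1 at 1.92%, and in the type 1-leaning column the same genes stand at 20.1%, 32.0%, 32.4% and 58.6%.

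NK gate cells were 6.75% of the kept cells of MRX, 4.05% of CTX, 12.9% of Combined, 1.47% of ctxd18t and 1.79% of combod18t. Combined was thus highest for NK gate cells as it was for gate cells, and the part of NK cells in the gate share was not tested beyond the following counts. Without cells that carry Ncr1 or Klrb1c, an alternative chosen after seeing the data, MRX kept a gate share of 0.827%, CTX 0.405%, Combined 0.961%, ctxd18t 0.374% and combod18t 1.29%. The difference between Combined and CTX was then 0.556 points, and combod18t was highest. With a Trgc UMI asked for, also chosen after seeing the data, combod18t stood at 1.27% and Combined at 1.23%.

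The type 17-leaning cells were few in CTX and many in combod18t. They made up 27.1% (17.99 to 37.8) of the gate cells in MRX, 5.13% (1.41 to 12.6) in CTX and 24.1% (16.5 to 33.1) in Combined. The share was 21.1% (6.05 to 45.6) in ctxd18t, where it rests on 19 cells, and 82.1% (69.6 to 91.1) in combod18t. Combined exceeded CTX by 19.0 points (8.86 to 28.2) and combod18t exceeded ctxd18t by 61.1 points (35.8 to 75.9). CTX lay 21.9 points below MRX, written as a difference of -21.9 (-32.7 to -10.9), and Combined and MRX differed by -2.95 points (-15.4 to 9.07). Of all kept cells, the type 17-leaning share was 0.423% for MRX, 0.0450% for CTX, 0.603% for Combined, 0.0997% for ctxd18t and 1.14% for combod18t. The type 1-leaning share of kept cells was 1.14%, 0.832%, 1.90%, 0.374% and 0.199% in the same order. In the pair labelled d18 the whole gain in gate cells was thus in type 17-leaning cells, while in Combined against CTX both sets were larger. Without cells carrying Ncr1 or Klrb1c, the type 17-leaning share of gate cells was 51.1% in MRX, 11.1% in CTX and 60.5% in Combined. It was 13.3% in ctxd18t and 82.7% in combod18t. Combined then exceeded CTX by 49.4 points (28.8 to 64.1). The difference of Combined against MRX turned to 9.35 points (-11.0 to 28.7).

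**Figure D3:**
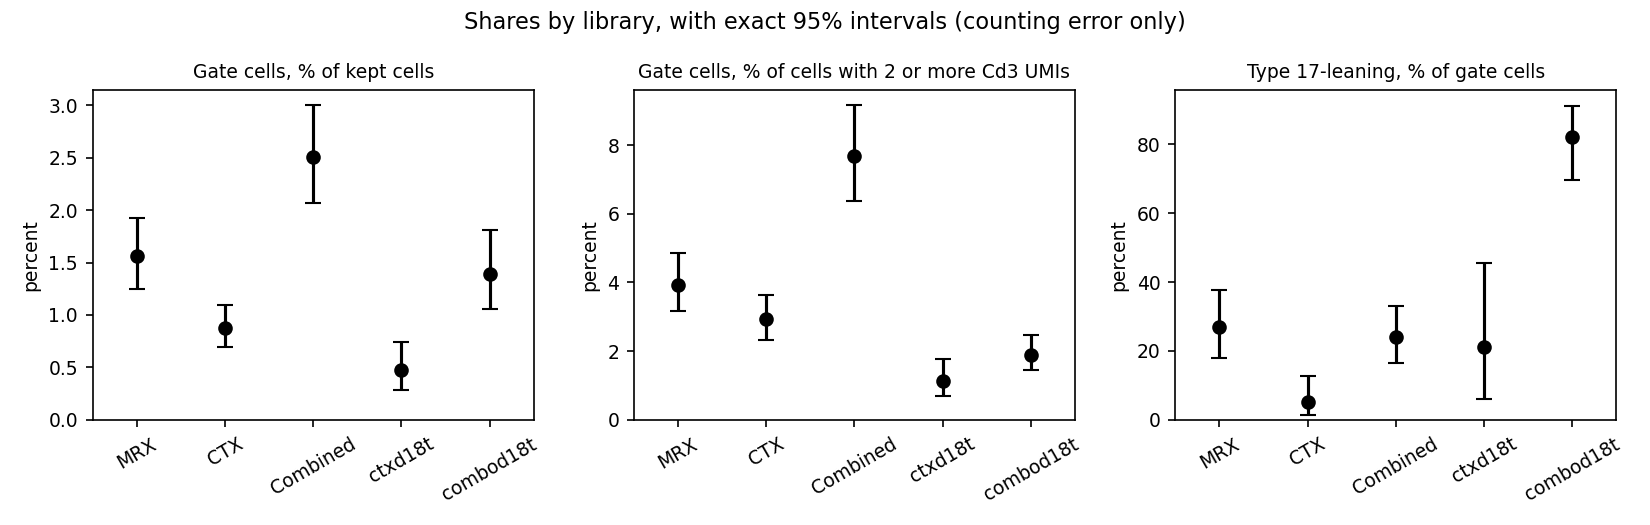
The panels give, for each library on the x axis, gate cells as a percent of kept cells, as a percent of cells with 2 or more Cd3 UMIs, and type 17-leaning cells as a percent of gate cells. Bars are exact 95% intervals; Combined is highest in the first and second panels (2.50% and 7.68%) and combod18t in the third (82.1%).

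Transcripts of variable segments were read next, and a segment's transcript does not show that its chain was used. Among the 104 type 17-leaning cells, Trgv2 was seen in 60, Trgv4 in 29 and Trgv6 in 6. No cell held both Trgv4 and Trgv6, the 2 segments known from interleukin 17 producers in mice. All 6 cells with Trgv6 also held Trdv4, which 11 of the 104 cells carried. Trdv4 was no mark of the set, since 225 of 1435 NK gate cells, 15.7%, held it. Trdv5 was seen in 40 of the 104 cells and in 16 of the 29 with Trgv4. By library, Trdv5 was seen in 29 of 46 type 17-leaning cells of combod18t, 7 of 27 of Combined, 1 of 23 of MRX, 1 of 4 of CTX and 2 of 4 of ctxd18t.

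Trgv4 was seen in 20 of 46 cells of combod18t, 5 of 23 of MRX, 3 of 27 of Combined, 1 of 4 of CTX and no cell of ctxd18t. In type 1-leaning cells Trgv1 was seen in 38 of 244, 15.6%, against 5 of 104, and Trdv5 in 10 of 244. Nor was Trgv2, since 18.5% of CD8 gate cells held it, while Trgv4 was seen in 2 and Trdv5 in none of 3217 CD8 gate cells. Capture at the 3' end reads variable segments sparsely, so a segment that was not seen may still have been transcribed.

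Il17a and Il17f encode interleukin 17A and 17F, and Il23r encodes the receptor chain that keeps such cells producing them. In RefSeq's promoter table (GRCm38.p6), the 250 bases before the start of each gene hold AGGTCA, a half-site bound by nuclear receptors. They are shown because these genes carry the type 17 readout, and capitals mark AGGTCA on either strand. The stretches lie at chr1:20730655-20730904 on the plus strand, chr1:20784271-20784520 on the minus strand and chr6:67491856-67492105 on the minus strand:
Il17a: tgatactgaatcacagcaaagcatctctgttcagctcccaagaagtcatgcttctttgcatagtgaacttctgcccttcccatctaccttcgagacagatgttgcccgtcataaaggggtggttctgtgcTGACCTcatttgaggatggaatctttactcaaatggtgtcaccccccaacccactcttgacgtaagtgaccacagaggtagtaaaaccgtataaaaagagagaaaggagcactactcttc
Il17f: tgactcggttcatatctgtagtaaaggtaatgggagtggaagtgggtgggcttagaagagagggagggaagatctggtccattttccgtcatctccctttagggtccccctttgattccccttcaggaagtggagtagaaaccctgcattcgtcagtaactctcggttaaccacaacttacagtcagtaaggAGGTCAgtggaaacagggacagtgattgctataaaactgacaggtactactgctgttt
Il23r: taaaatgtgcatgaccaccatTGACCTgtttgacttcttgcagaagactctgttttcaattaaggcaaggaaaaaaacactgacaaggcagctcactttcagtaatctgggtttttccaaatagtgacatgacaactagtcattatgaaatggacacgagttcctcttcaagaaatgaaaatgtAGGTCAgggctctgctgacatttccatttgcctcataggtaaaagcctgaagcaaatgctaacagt

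AGGTCA lies 120 to 115 bases before the start of Il17a on the opposite strand and 58 to 53 bases before that of Il17f on the gene's own strand. For Il23r it lies 229 to 224 bases before the start on the opposite strand and 66 to 61 on its own. Of 27025 promoters in the table, 13.8% hold AGGTCA on either strand within the same length. Of the type 17 list, 10 of 13 genes have an entry and 5 hold it: Il17a, Il17f, Il23r, Ccr6 and Scart2. Of the type 1 list, 10 of 13 have an entry and none holds it. A match in letters is a description and says nothing of binding in these cells.

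Among the cytokines, Il17a stood at 254 CPM (UMIs of a gene per 1000000 UMIs, summed over the gate cells of a library; 176 UMIs) in MRX, 17.8 (13 UMIs) in CTX and 171 (198 UMIs) in Combined. The ctxd18t library gave 332 CPM (52 UMIs) and combod18t 882 (530 UMIs). CTX was lowest and combod18t highest. The log2 ratio of CPM + 1 was 3.19 (2.45 to 4.20) for Combined against CTX and 1.41 (1.00 to 1.85) for combod18t against ctxd18t. In ctxd18t, 51 of the 52 UMIs came from 1 cell, and in MRX 125 of 176 did, so these levels rest on few cells. By cells, Il17a was seen in 13 of 85 gate cells of MRX, 2 of 78 of CTX, 15 of 112 of Combined, 2 of 19 of ctxd18t and 27 of 56 of combod18t. In the B cell gate it was seen in 1 of 229 cells of combod18t and in none of the other 4 libraries. Thinned to 2000 UMIs, the gate cell shares were 10.7%, 2.56%, 10.7%, 5.26% and 37.5% in the same order of libraries.

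Il17f stood at 49.0 CPM for MRX, 15.1 for CTX, 62.1 for Combined, 6.39 for ctxd18t (1 UMI) and 121 for combod18t. Of the 104 type 17-leaning cells, 26 held UMIs of both cytokines, 31 of Il17a alone and 10 of Il17f alone. Gate cells supplied most of a library's Il17a in 3 libraries: 64.7% of all its UMIs in kept cells of MRX, 80.8% in Combined and 80.3% in combod18t, against 14.6% in CTX and 31.5% in ctxd18t. For Il17f the gate cells' part was smaller, from 1.35% in ctxd18t to 42.0% in combod18t.

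Receptors of the program were also lowest in CTX and highest in combod18t. Il23r stood at 173, 38.4, 133, 339 and 839 CPM in MRX, CTX, Combined, ctxd18t and combod18t. Il1r1, which encodes the interleukin 1 receptor, stood at 125, 28.8, 71.6, 211 and 589 CPM. Scart2, a scavenger receptor of gamma-delta cells, stood at 225, 21.9, 159, 153 and 850 CPM, and Blk, a kinase of B cells and of this subset, at 166, 15.1, 94.0, 128 and 612 CPM. The libraries between these 2 ranked differently from gene to gene, with ctxd18t second for Il23r and Il1r1 and MRX second for Scart2 and Blk.

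Of the 13 type 17 genes, 9 had at least 30 UMIs over Combined and CTX, and 8 of them stood at a log2 ratio of at least 1 in favour of Combined and none the other way. Over all 6892 genes with as many UMIs, 3.13% stood as far above and 1.15% as far below. The list's median was 1.97 beside 0.07 for all genes. For combod18t against ctxd18t, 12 of the 13 had enough UMIs, 10 were higher and none lower, with a median of 1.83 beside 0.10. The background there was 13.3% higher and 5.44% lower of 4670 genes.

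CTX against MRX gave the reverse, with 9 of 9 lower and a median of -2.14 beside -0.03, where 2.99% of 6030 genes were higher and 3.5% lower. For Combined against MRX, 1 of 9, Maf, was lower and none was higher, with a median of -0.57 beside 0.03. The background in that pair was 4.01% higher and 1.72% lower of 6854 genes. Comparisons that use the same library are not independent, and these lists were chosen with results of these data known.

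**Figure D4:**
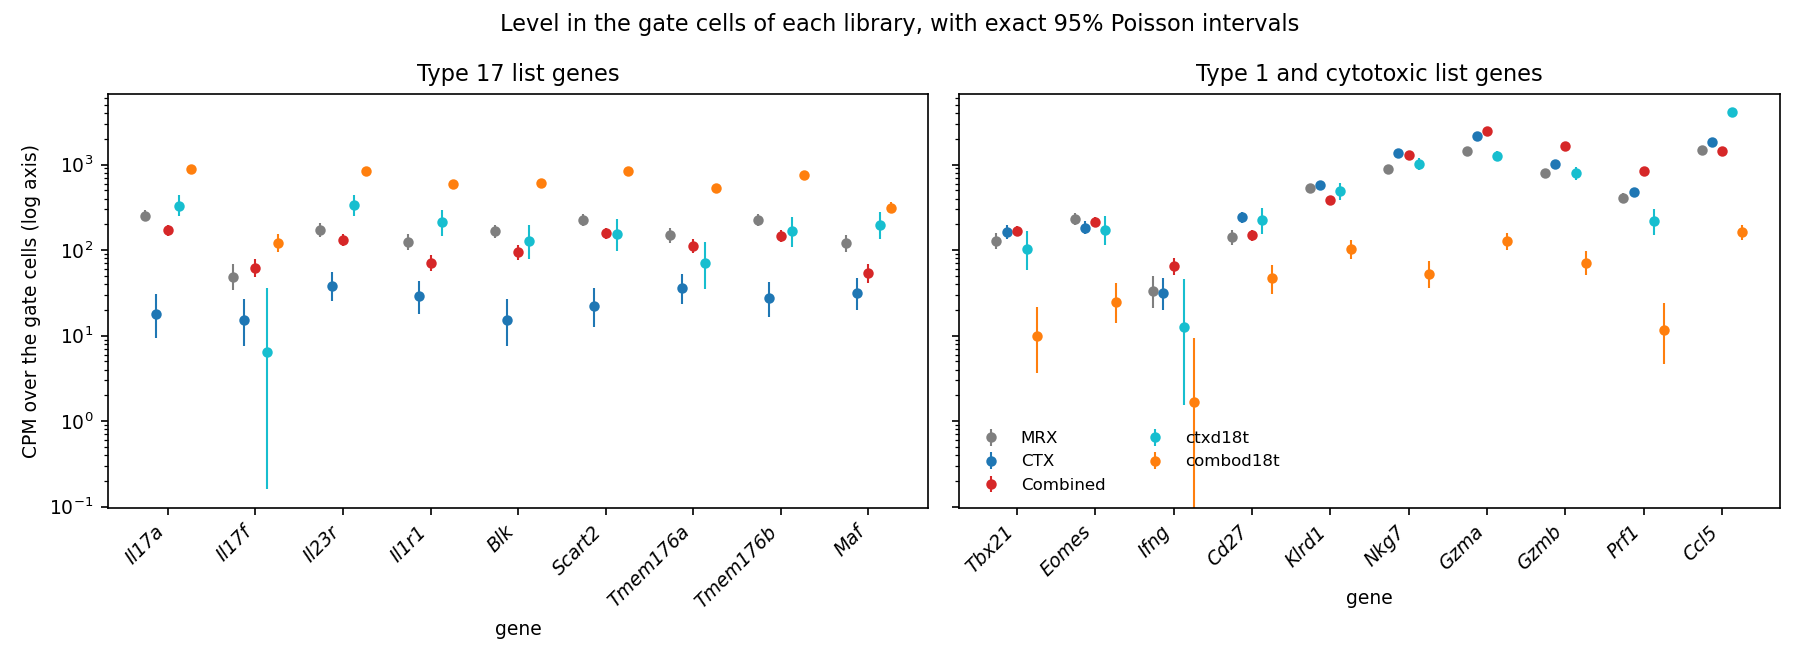
Each point is the CPM of a gene (x axis) over the gate cells of a library on a log axis, coloured by library, with exact 95% Poisson intervals. On the left the type 17 genes are lowest in CTX for 8 of the 9 genes drawn, Il17f being lowest in ctxd18t, and on the right all 10 type 1 genes are lowest in combod18t.

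Genes of the cytotoxic program were lower in combod18t than in any other library. Gzma, which encodes granzyme A, stood at 1426, 2134, 2483, 1258 and 126 CPM in MRX, CTX, Combined, ctxd18t and combod18t. Prf1, which encodes the pore protein perforin, stood at 409, 477, 834, 217 and 11.6 CPM. Nkg7, a granule protein of killer cells, stood at 889, 1365, 1279, 1022 and 53.2 CPM, and the chemokine gene Ccl5 at 1474, 1830, 1445, 4081 and 161 CPM. Of the 13 type 1 genes, 11 could be read in combod18t against ctxd18t, of which 10 were lower and none higher, with a median of -2.74, beside 5.44% lower of all genes. In Combined against CTX all 13 could be read and 1, Ifng, was higher, with a median of 0.04, beside 3.13% higher of all genes. Its log2 ratio of 1.01 turned to -0.32 when cells were thinned and to -5.72 without cells carrying Ncr1 or Klrb1c. Ifng encodes interferon gamma and stood at 33.1, 31.5, 64.7, 12.8 and 1.66 CPM, the last from 1 UMI.

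Some supporting genes of the type 17 program were higher too. Of 16 such genes, 14 could be read in Combined against CTX and 6 were higher, beside 3.13% of all genes, among them Serpinb1a, Ltb4r1, which encodes the leukotriene B4 receptor, and Il7r, the receptor for the survival cytokine interleukin 7. Serpinb1a had a log2 ratio of 2.75 (1.82 to 4.11). In combod18t against ctxd18t 4 of 14 were higher, Serpinb1a and Ltb4r1 among them, beside 13.3% of all genes, and the other 10 did not reach a log2 ratio of 1. Set against MRX, 10 of 14 were lower and none higher in CTX, beside 3.5% lower and 2.99% higher of all genes. None of 15 reached that size in Combined against MRX, beside 4.01% higher and 1.72% lower of all genes. Igf1r, the receptor for insulin-like growth factor 1, stood at 305, 28.8, 177, 281 and 929 CPM in MRX, CTX, Combined, ctxd18t and combod18t. It was seen in 99 of 104 type 17-leaning cells and 15 of 244 type 1-leaning ones.

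By a rule of size over genes with at least 200 CPM in 1 of the 4 libraries, the 5 with the largest rise in both pairs were Scart2, Abi3bp, Blk, Calca and Tmem176b. Calca, which encodes calcitonin gene-related peptide and its relatives, stood at 28.8, 6.85, 36.2, 6.39 and 241 CPM. Abi3bp, a matrix-binding protein, stood at 189, 23.3, 127, 44.7 and 501 CPM. The 5 with the largest fall in both pairs were Klra7, Ikzf2, Il21r, Klri1 and Hopx. Klra7 and Klri1 encode NK receptors, Ikzf2 the factor Helios, Il21r the interleukin 21 receptor and Hopx a regulator of effector T cells. Klra7 stood at 118, 258, 93.2, 172 and 11.6 CPM, highest in CTX and lowest in combod18t. A level over all gate cells follows both the mix of the 2 leaning sets and the level within each, so the sets were also read apart.

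Within the type 17-leaning cells, CTX and ctxd18t held 4 cells each, which leaves no usable counterpart for combod18t among libraries with d18 in the label. Genes were therefore compared between MRX (23 cells, 178252 UMIs) and Combined (27 cells, 200797 UMIs). Type 17 genes differed little there, with Il17a at 987 and 981 CPM, of which 1 cell gave 125 of 176 UMIs in MRX and 64 of 197 in Combined, and none of the 9 that could be read had a log2 ratio of 1 or more in size. Of all 2581 genes that could be read, 5.93% were higher and 3.29% lower in Combined. The genes that defined the set are no finding within it.

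Genes switched on by interferon were higher in the type 17-leaning cells of Combined. Of 13 such genes, 6 had enough UMIs and 4 were higher, Gbp2, Zbp1 and Ifi27l2a among them, and none lower. Over all genes that could be read, 5.93% were higher and 3.29% lower. The list's median log2 ratio was 2.23 beside 0.02 for all genes. Gbp2, a guanylate-binding protein that acts against microbes, was seen in 20 of 27 cells of Combined and 5 of 23 of MRX. It stood at 294 CPM (59 UMIs) and 50.5 (9 UMIs), a log2 ratio of 2.52 (1.52 to 3.74). Zbp1, a sensor of nucleic acids, was seen in 15 of 27 and 5 of 23 cells, with a log2 ratio of 2.60 (1.39 to 4.16).

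Per cell, the 13 genes together took a median of 27.0 of every 10000 UMIs in Combined, with quartiles of 16.7 and 41.2. In MRX the median was 4.49 with quartiles of 3.16 and 8.87, so the middle ranges of the sets did not overlap. In combod18t the median was 7.56, in CTX 9.31 over 4 cells and in ctxd18t 2.23 over 4 cells. Type 1-leaning cells stood at medians of 5.87 in MRX, 8.65 in CTX and 7.27 in Combined. In CD8 gate cells the medians were 14.8 in MRX and 18.3 in Combined. In CD4 gate cells they were 13.4 and 20.0, and in NK gate cells 3.91 and 5.86. Whether the difference between Combined and MRX is itself larger in type 17-leaning cells than in the other sets could not be tested with 1 library each.

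**Figure D5:**
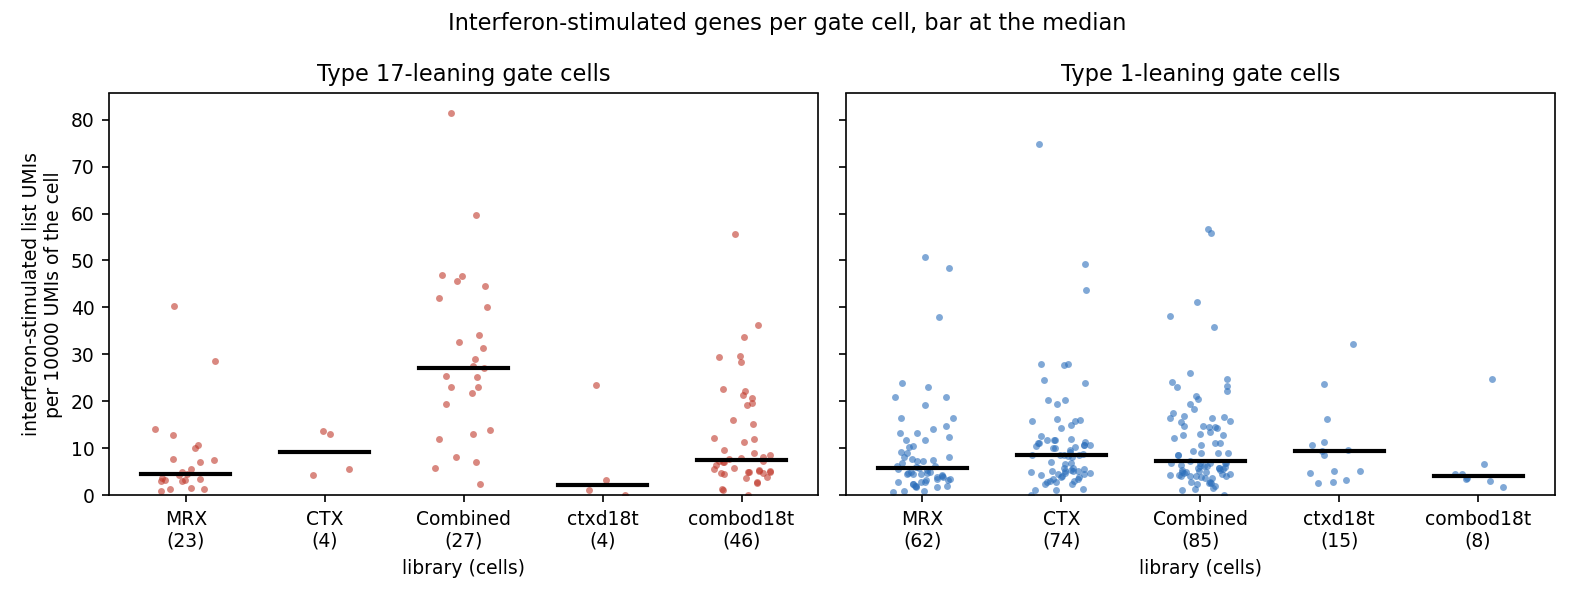
Each point is a gate cell, with its UMIs of the 13 interferon-stimulated genes per 10000 UMIs on the y axis and the library with its number of cells on the x axis, and bars mark medians. Type 17-leaning cells of Combined have a median of 27.0, above 4.49 in MRX, while type 1-leaning cells of MRX, CTX and Combined lie between medians of 5.87 and 8.65.

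Immediate early genes, which are read out within minutes of receptor signals or of tissue handling, had higher sums in the type 17-leaning cells of Combined than in those of MRX. Of 13 genes in the list, which includes heat shock genes, 9 could be read, 7 were higher and none lower, with a median of 1.44, beside 5.93% higher of all genes. Fos was seen in 15 of 27 cells of Combined (96 UMIs) and 9 of 23 of MRX (26 UMIs), and Jun in 12 and 6 cells (71 and 8 UMIs). Egr1 rested on 1 cell, which gave 46 of the 48 UMIs of Combined. The per-cell median of the list was 24.9 in Combined and 21.7 in MRX per 10000 UMIs, with quartiles of 15.9 and 45.1 and of 13.4 and 28.5 that overlap. The other libraries stood above Combined, with medians of 31.6 in CTX, 49.7 in ctxd18t and 31.4 in combod18t, the first and second over 4 cells each.

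Within the type 1-leaning cells of MRX (62 cells), CTX (74 cells) and Combined (85 cells), summed counts of several cell cycle and checkpoint genes differed from MRX. Of 10 cell cycle genes, all 10 could be read and 6 were higher in CTX than in MRX, beside 3.67% of 5534 genes. Against MRX 9 were higher in Combined, beside 5.13% of 6124 genes, and none was lower in either pair. Top2a, a topoisomerase of dividing cells, was seen in 16 of 62, 32 of 74 and 42 of 85 cells of MRX, CTX and Combined. Cells with 2 or more UMIs of Mki67 and Top2a made up 25.8% (15.5 to 38.5) of the set in MRX, 29.7% (19.7 to 41.5) in CTX and 41.2% (30.6 to 52.4) in Combined, intervals that overlap. Per cell, the list's median was 1.28 of 10000 UMIs in MRX, 1.36 in CTX and 2.06 in Combined, with upper quartiles of 2.50, 8.06 and 11.8. The upper quartiles of NK gate cells were 4.67, 10.7 and 11.9 and those of CD8 gate cells 3.89, 24.1 and 13.99, so MRX was lowest in these sets as well.

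Pdcd1, which encodes the checkpoint receptor PD-1, was seen in 3 of 62 type 1-leaning cells of MRX (3 UMIs), 16 of 74 of CTX (55 UMIs) and 14 of 85 of Combined (50 UMIs). Havcr2, which encodes TIM-3, was seen in 1, 11 and 9 cells. Ctla4, another checkpoint gene, was seen in 10, 20 and 24 cells. Tigit went the other way, in 27, 20 and 16 cells. Of the 8 checkpoint genes, 6 could be read, and in CTX against MRX 3 were higher and 1 lower, where 2.6% of all genes were lower. In Combined against MRX the counts were also 3 and 1, where 2.89% were lower. The per-cell median of the whole list did not rise, at 3.78 of 10000 UMIs in MRX, 3.62 in CTX and 3.57 in Combined.

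Between Combined and CTX, 2.35% of 6458 genes were higher and 1.27% lower in the type 1-leaning cells of Combined. Of the 13 type 1 genes Ifng and Prf1 were higher, but both belong to the list that set the lean. Prf1 stood at 1009 CPM in Combined and 497 in CTX, beside Ncr1 at 349 and 210 CPM in the same cells. Gamma chain UMIs were rarer there in Combined: 34.1% (24.2 to 45.2) of the type 1-leaning cells held one, beside 59.5% (47.4 to 70.7) in CTX. The part that NK cells play in these values was not tested.

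The gate cells were then set against 3 other lymphocyte sets of the same libraries, picked by like rules: CD8 alpha-beta T cells (3217 cells), conventional CD4 T cells (2765) and NK cells (1435). The CD8 and CD4 gates also asked for no Trdc UMI. Gamma and delta chain genes set against these gates are thus no independent check of the label. Here each library gave a pair of summed counts, so the test ran over 5 libraries, with edgeR's quasi-likelihood test, the library as a block and Benjamini-Hochberg adjustment over all genes fitted. The libraries differ in treatment, and the labels do not say that they are separate animals.

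Against CD8 T cells, gate cells held more of the innate T cell factor Zbtb16 and of 7 type 17 genes, and less of Themis, Cd5 and Cd6. Of 9685 genes, 161 were higher in gate cells, 1.66%, and 147 lower, 1.52%, genes of the gates left out. Zbtb16, which encodes PLZF, stood at 140, 60.3, 109, 339 and 383 CPM in gate cells of MRX, CTX, Combined, ctxd18t and combod18t, and at 1.36 to 6.17 CPM in CD8 cells. The log2 fold change was 6.03 (SE 0.30, adjusted p = 3.64e-05, edgeR), higher in 5 of 5 libraries. Of the 13 type 17 genes, 10 could be tested and 7 were higher, among them Il17a, Il23r and Blk. Blk had a log2 fold change of 7.55 (SE 0.57, adjusted p = 0.00124).

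Themis, which tunes signals of the alpha-beta receptor in the thymus, stood at 21.6 to 160 CPM in gate cells and 504 to 953 in CD8 cells, with no overlap. Its log2 fold change was -3.62 (SE 0.32, adjusted p = 0.00154). Cd5 and Cd6, which dampen receptor signals, were also lower, by log2 fold changes of -2.60 and -3.18 (adjusted p = 0.00662 and 0.000350). Of the 10 lineage genes that could be tested these 3 were lower, none was higher and the other 7 did not pass. Trac, the alpha chain constant gene, was lower at -3.18 (SE 0.24, adjusted p = 0.000293), and Trgc4 higher at 3.12 (SE 0.26, adjusted p = 0.000293). Gm44174 was at 0 in gate cells of all 5 libraries and at 64.7 to 156 CPM in CD8 cells. It lies between Cd8b1 and Cd8a on their strand in the GENCODE M21 annotation, and its link to the gate on CD8 genes was not tested.

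Among other genes above the threshold against CD8 cells were Pde5a, a phosphodiesterase, Syne2, a nuclear envelope protein, and Ramp1, a part of the receptor for calcitonin gene-related peptide. Ramp1 stood at 93.2 to 356 CPM in gate cells and 42.1 to 55.8 in CD8 cells (log2 fold change 1.93, SE 0.23, adjusted p = 0.00354). Pdcd1 and Ctla4 were lower, the only 2 of 8 checkpoint genes that passed, at -1.84 and -1.89 (adjusted p = 0.0295 and 0.0370). Of the type 1 list Gzma was higher and Ifng lower, and the other 11 did not pass. Gzma had a log2 fold change of 2.55 (adjusted p = 0.0278), which was -0.13 without cells carrying Ncr1 or Klrb1c and lost the threshold in 9 of 12 alternatives. Ifng stood at 1.66 to 64.7 CPM in gate cells and 33.9 to 224 in CD8 cells, lower in 5 of 5 libraries (log2 fold change -1.87, adjusted p = 0.00599).

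Against conventional CD4 T cells, 294 of 9254 genes were higher in gate cells, 3.18%, and 322 lower, 3.48%. The 6 gamma and delta chain segment genes that could be tested were all higher, with a median log2 fold change of 5.47, beside CD4 cells picked for no Trdc UMI. Of the killer cell genes, 7 of 13 type 1 genes and 11 of 18 further NK and cytotoxic genes were higher and none was lower. Klrc1, an inhibitory NKG2 receptor, stood at 105 to 613 CPM in gate cells and 6.38 to 51.4 in CD4 cells (log2 fold change 4.07, SE 0.28, adjusted p = 9.78e-05). Of the type 17 list Scart1, Scart2 and Blk were higher, and Il17a did not pass (3.92, SE 0.92, adjusted p = 0.0635). Among the lower genes, Tnfrsf4, the co-stimulatory receptor OX40, was at 0 in gate cells of 4 libraries and 6.90 CPM in Combined, and at 84.1 to 461 CPM in CD4 cells. Penk, the enkephalin precursor, stood at 0 to 10.1 CPM in gate cells and 139 to 1502 in CD4 cells (log2 fold change -6.94, SE 0.71, adjusted p = 0.00305). Cd40lg, the helper signal to B cells, had a log2 fold change of -3.38 (SE 0.73, adjusted p = 0.0495) and lost the threshold in 5 of 12 alternatives.

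Against NK cells, 95 of 7163 genes were higher in gate cells, 1.33%, and 11 lower, 0.154%. Of the gamma and delta chain segments 4 of 5 that could be tested were higher, of the type 17 list 6 of 9 and of the homing and residency list 2 of 11, Cxcr6 and Itgae. Trgc2 stood at 91.4 to 295 CPM in gate cells and at 0 to 0.574 in NK cells. Il23r stood at 38.4 to 839 CPM in gate cells and 0 to 1.46 in NK cells (log2 fold change 8.80, SE 0.34, adjusted p = 2.04e-06). Lat, the adaptor below the T cell receptor, stood at 93.2 to 298 CPM against 17.96 to 30.3 (log2 fold change 2.71, SE 0.24, adjusted p = 0.000565). Il7r (3.71, adjusted p = 0.0165) and Cxcr6, a receptor of tissue-resident T cells (3.42, adjusted p = 0.0359), were higher too, but each lost the threshold in alternatives, 3 and 5 of 12.

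None of the 13 type 1 genes and none of the 17 further NK and cytotoxic genes that could be tested passed against NK cells. Their median log2 fold changes were -1.15 and -0.74, and a test that misses the threshold does not show that the sets are alike. Among the 11 lower genes were Pcyt1a, an enzyme of phosphatidylcholine synthesis, and Il18rap, a chain of the interleukin 18 receptor, which lost the threshold in 4 of 12 alternatives. Pcyt1a stood at 28.8 to 57.5 CPM in gate cells and 79.6 to 135 in NK cells (log2 fold change -1.31, SE 0.15, adjusted p = 0.00222). Without cells carrying Ncr1 or Klrb1c, 308 genes were lower in place of 11.

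These counts rest on single libraries. Without combod18t, the genes higher and lower than in CD8 cells numbered 324 and 302, and 59 genes were lower than in NK cells. Without MRX they numbered 65 and 52 against CD8 cells and without Combined 69 and 44.

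Markers of other cells were present in the gate cells. The alpha-beta chain constant genes Trac, Trbc1 and Trbc2 summed to 907 to 1238 CPM and were seen in 84 of 85, 74 of 78, 109 of 112, 19 of 19 and 56 of 56 gate cells of MRX, CTX, Combined, ctxd18t and combod18t. The 6 NK markers summed to 49.9 CPM in combod18t and to between 441 and 714 in the other libraries. Il2ra, the regulatory T cell marker outside the gate, stood at 163, 82.2, 117, 300.2 and 562 CPM in MRX, CTX, Combined, ctxd18t and combod18t. It was lowest in CTX and highest in combod18t, as Il17a and Il23r were. The 4 type 2 innate lymphoid markers, Calca among them, summed to 158, 103, 204, 31.9 and 243 CPM, with Il13 or Il1rl1 at 0 in every library. The 3 neutrophil markers summed to 96.5, 21.9, 164, 12.8 and 221 CPM, of which 1 cell gave 64 of 67 UMIs in MRX and 177 of 190 in Combined. The part of such cells in the results was not tested. Of 5 monocyte-macrophage markers outside the gate, all 5 were seen in MRX, CTX and Combined, at 262, 1083 and 938 CPM in sum, and 25.5 in ctxd18t and 564 in combod18t. They were seen in 40 of 78 gate cells of CTX, where 1 cell gave 198 of 790 UMIs, and in 45 of 112 of Combined, where 1 cell gave 236 of 1088. In combod18t 307 of 339 such UMIs came from 1 cell. Dendritic cell markers were at 0 in CTX and ctxd18t and gave 54 UMIs in 1 cell of combod18t. Of 3 epithelial markers, Krt8 and Krt18 were at 0 in all 5 libraries, and Epcam was seen at 9, 2, 6, 1 and 3 UMIs in MRX, CTX, Combined, ctxd18t and combod18t. B and plasma cell markers summed to 1.37 to 25.5 CPM and the 2 haemoglobin genes to at most 1.73. Areg, which encodes the repair factor amphiregulin, stood at 73.5, 136, 48.3, 51.1 and 341 CPM. Its log2 ratio in Combined against CTX was -1.47 (-1.99 to -1.003) and turned to 2.49 when only gate cells with no C1q UMI were counted. In combod18t, 657 of 660 Il17a UMIs and 711 of 714 Scart2 UMIs of the kept cells lay in cells with 2 or more Cd3 UMIs.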

How the data were processed

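Droplet-based single-cell RNA libraries (10x 3' V4 chemistry with on-chip multiplexing, per the labels' protocols) of sorted CD45+ cells were read from the deposited matrices, raw UMI counts per gene and cell. The header of the deposited MRX matrix names Cell Ranger 9.0.1. GRCm39 and Seurat 5.2.0 are listed in the submitters' processing notes. Cells with at least 200 genes and at most 15% mitochondrial counts were kept, 26843 in 5 libraries of 39820290 to 100733879 UMIs; doublets were not removed in the main values, and removing the top 5% of Scrublet scores (scanpy 1.11.5) was an alternative. The gate, the gene lists and the members were chosen with earlier results of these data known.

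Counts were summed over the gate cells of a library and given as CPM with exact Poisson intervals. Pairs of libraries were compared by the log2 ratio of CPM + 1, with exact binomial intervals, conditional on the pair's total, for the plain ratio, over genes with at least 30 UMIs in the pair; a size of at least 1 was counted. Shares have exact Clopper-Pearson intervals and differences of shares Newcombe intervals, all at 95% and for counting error only. With 1 library per label no p-value was computed between libraries. Gate cells were compared with the other gates by edgeR 4.0.16 (R 4.3.3; TMM, filterByExpr, quasi-likelihood test, library as block, Benjamini-Hochberg adjustment, threshold 0.05), with DESeq2 1.42.0 as an alternative. On simulated counts, the test recovered 93.8% of genes changed by a log2 of 2 against CD8 cells (9694 genes), 88.8% against CD4 cells (9262) and 98.9% against NK cells (7169); for a log2 of 1 it recovered 63.9%, 50.5% and 82.5%.

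Genes named were the best counted of each list, the 10 highest and 10 lowest called genes by fold against each gate (same direction in all 5 libraries, at least 50 CPM in the higher cell type), and the 5 in each direction with the largest smaller change over both treatment pairs (at least 200 CPM in 1 library). Other genes were chosen after their values were seen. Other alternatives were the pseudocount, the count filter, stricter gates, thinning to 2000 UMIs and leaving out each library. Promoters came from RefSeq's table (GRCm38.p6). Values of some genes are not reported here.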

Additional observations from a re-analysis of the deposited data

Results flagged for a closer look

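In the listed genes below the intervals of the 2 treatment pairs lay on opposite sides of 0. Each value is the log2 ratio over all gate cells, first for Combined against CTX and then for combod18t against ctxd18t. With 1 library per label the difference between the pairs was not tested. Granule genes had a ratio above 0 in the first pair and below 0 in the second: Gzma stood at 0.22 and -3.30, Gzmb at 0.69 and -3.45, and Prf1 at 0.80 and -4.11. Without cells carrying Ncr1 or Klrb1c the first value turned to -0.94 for Gzma and -0.62 for Gzmb, and with a Trgc UMI to -0.14 for Gzmb, so both pairs then went the same way. The same order held for Il2rb, a chain of the interleukin 2 receptor, at 0.22 and -0.43, and for the checkpoint gene Ctla4 at 0.82 and -1.22. It also held for the transcription factor genes Klf2 at 1.07 and -1.36 and Stat3 at 0.13 and -0.58, the first of which was -0.0114 with no C1q UMI. The reverse order was seen for Fcer1g, a signalling adaptor, at -0.28 and 1.13, for the chemokine receptor gene Ccr2 at -0.47 and 0.61, and for Areg at -1.47 and 2.72. The opposition was lost for Ccr2 without cells carrying Ncr1 or Klrb1c, where the first value was 0.64. It was lost for Areg with no C1q UMI, at 2.49, and without the marked doublets, at 2.50.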

How the results depend on the processing

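With 1 library per label, counting intervals bound the depth and nothing bounds the spread between animals, and ctxd18t rests on 19 gate cells. Alternatives asking for a Trgc UMI, or for no Ncr1 or Klrb1c UMI, were chosen after seeing the data. No paired analysis between labels was possible because each label has 1 library, and the replicate number, 1 for all, does not match them. The library block pairs gates within a library. The cause was not tested for any change below.

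As a share of kept cells, Combined minus CTX moved from 1.63 points to 1.14 with at least 3 Trdc UMIs, 0.465 when thinned, 0.689 with Trgc and 0.556 without NK UMIs. CTX minus MRX became -0.262 when thinned. Combined minus MRX became 0.204 thinned, 0.365 with Trgc and 0.133 without NK UMIs. As a share of Cd3 cells, Combined minus CTX became 3.29, 1.82, 1.97 and 1.60 in the same order of settings, and Combined minus MRX 1.46 thinned, 1.59 with Trgc and 0.862 without NK UMIs. For the type 17-leaning share, Combined minus CTX became 38.9 points with Trgc and 49.4 without NK UMIs, CTX minus MRX -36.3 and -40, and Combined minus MRX 9.35 without NK UMIs.

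Genes at a log2 ratio of at least 1 in Combined against CTX, 216 higher and 79 lower, became 79 and 38 with a pseudocount of 10 and 88 and 47 when thinned; the lower ones became 154 with Trgc and 199 without NK UMIs. For combod18t against ctxd18t, 620 and 254 became 126 and 68 when thinned. Thinning also left fewer genes to read, 2501 in place of 6892 in the first pair and 1061 in place of 4670 in the second. Against CD8 cells, 161 higher and 147 lower became 281 and 248 with DESeq2 and 280 and 268 with no count filter; the lower ones became 81 with no library block and 69 without NK UMIs. Against CD4 cells, 294 higher became 137 without NK UMIs, and 322 lower became 617 with no filter, 198 with no library block and 148 without NK UMIs. Against NK cells, 95 higher became 170 with DESeq2, 313 with no filter, 50 with no library block, 304 with Trgc and 373 without NK UMIs; 11 lower became 69, 260, 5, 226 and 308 in the same order, 27 with no C1q UMI and 52 when thinned. Leaving out 1 library gave 65 to 324 higher and 44 to 302 lower against CD8 cells, 121 to 558 and 143 to 645 against CD4 cells, and 34 to 135 and 1 to 59 against NK cells.

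Named genes turned direction in a few settings. In Combined against CTX without NK UMIs, Trgv2 became 0.52, Trgc4 0.0486, Gzma -0.94, Gzmb -0.62, Ifng -5.72, Tcf7 0.0035, Ccr2 0.64, Id2 -0.36 and Cdkn1a -0.22. With no C1q UMI, Trgc4 became 0.0314, Stat3 -0.0114 and Areg 2.49, and Areg became 2.50 without the marked doublets. Gzmb became -0.14 with Trgc and Ifng -0.32 when thinned. In combod18t against ctxd18t, Trgv1 became 3.31 when thinned and Tcf7 0.04998 with Trgc. Gzma against CD8 cells became -0.13 without NK UMIs. Of the named genes' values between gates, 591 kept their call and 77 lost it; between libraries 1015 stayed within their interval and 168 moved.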
